A study of Homo sapiens with 10 samples.

Results

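The snoRNA host transcripts described here are the noncoding RNAs GAS5, SNHG1, SNHG3, SNHG5, SNHG6, SNHG8, SNHG12, SNHG15, SNHG16 and ZFAS1. They were chosen by gene symbol, 10 of the 39472 symbols in the count tables, and all 10 were found. Every one of them had counts in the class named ncRNA and none in the other 6 classes of the tables (5' leader, CDS, 3'UTR, transcript, Pseudogene and LINC), so each host is 1 row of counts. The data are enhanced crosslinking and immunoprecipitation (eCLIP) libraries, in which RNA crosslinked to a protein by ultraviolet light is recovered with an antibody and sequenced. The protein was FLAG-tagged eIF4A, the RNA helicase of translation initiation, expressed in HEK 293T, an established human embryonic kidney line.

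The 3 anti-FLAG groups held 3 libraries each: vehicle (DMSO), 20 nM silvestrol and 20 nM CR-1-31-B, all after 1 h of treatment and crosslinking at 254 nm and 400 mJ/cm2. Silvestrol is a plant-derived rocaglate and CR-1-31-B a synthetic one, and both act on eIF4A. A single input library, made without antibody and carrying number 2, gave the background, and its treatment is not stated. All groups share the tagged protein, so no group lacks it, and the labels do not say which eIF4A paralog was tagged, how strongly it was expressed or whether the cells came from 1 clone. The p-values measure the spread between these libraries, since nothing says whether the numbers mark separate cultures.

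The intron of a snoRNA host gene carries a small nucleolar RNA, a guide for the chemical modification of ribosomal RNA that is released when the excised intron is trimmed. Box C/D snoRNAs direct ribose methylation and most box H/ACA snoRNAs direct pseudouridylation. The spliced exons form a capped RNA that can leave the nucleus and meet ribosomes, and several of these RNAs are short-lived because nonsense-mediated decay removes them once they are translated. Many host genes, coding and noncoding, begin with a C followed by pyrimidines, the terminal oligopyrimidine (TOP) start that is also found on ribosomal protein mRNAs, while rocaglates are known to hold eIF4A on purine-rich RNA.

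Both sequence features are shown for the hosts because they differ among them. RefSeq start sites (GRCh38.p14) were found for 8 of the 10 hosts, and SNHG6 and SNHG15 had no entry. The first 30 transcribed bases are given 5' to 3', with the longest run of pyrimidines (C or T) in capitals.

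SNHG5, chr6:85678704-85678733, minus strand: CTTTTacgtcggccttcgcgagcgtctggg
SNHG12, chr1:28581844-28581873, minus strand: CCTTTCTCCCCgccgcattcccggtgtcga
ZFAS1, chr20:49278642-49278671, plus strand: CTTTCgcgtctgcggtgcccggagtgtggt
SNHG1, chr11:62855856-62855885, minus strand: ctcaTTTTTCTactgctcgtggtaagtggc
SNHG3, chr1:28505943-28505972, plus strand: gaTTCTCTaactgcgcatgcttctgcgcac
SNHG16, chr17:76557764-76557793, plus strand: gcgTTCTTTTCgaggtcggccgcgtggctg
GAS5, chr1:173869016-173869045, minus strand: agatgtgtttaTTTTggagcctacaccagc
SNHG8, chr4:118278762-118278791, plus strand: cacaTTCgggaagcgtcgggattaggtgaa

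SNHG5, SNHG12 and ZFAS1 began with C inside an uninterrupted run of at least 5 pyrimidines, which makes 3 of 8 (37.5%), against 4.07% of the 35116 start sites in the same table and 13 of the 26 protein-coding snoRNA host genes with an entry. A run of at least 5 pyrimidines anywhere in the first 30 bases was present in 6 of the 8 and in 44.3% of all start sites. The search read the transcribed strand from a single annotated start per host, which may differ from the start used in these cells. A host without the run at that start may thus have it at another.

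The purine content of the hosts was close to that of noncoding genes in general. The median purine share of their GENCODE release 29 transcripts lay between 48.0% (SNHG1) and 55.3% (SNHG5), with a median of 52.9% over the 10 genes, against 51.2% over 26069 noncoding genes. SNHG6 stood near the top of the hosts with a median purine share of 55.2% and a longest purine run of 14 bases in the median transcript. Its log2 fold changes against DMSO were 1.14 for silvestrol and 1.20 for CR-1-31-B. SNHG5, with the highest purine share, had log2 fold changes of -0.37 and -0.34. A relation between purine content and the fold changes was not tested. The stretch around the longest purine run is shown for 4 of the hosts, with the run (A or G) in capitals. These 4 do not stand for all hosts. Among those not shown, the longest run was 16 bases, mostly A, in SNHG5-215 and 8 bases in SNHG1-206. Positions are counted from 1 at the 5' end of the named transcript.

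ZFAS1-206, bases 184 to 213: ccggccccAGAGGAAGGGGAAcccgtcgag
GAS5-209, bases 30 to 59: ggaagcctGGGGAGAGGGGAActggctaaa
SNHG3-201, bases 192 to 221: cctttatatAGAAGGGAGAGtaggtaaact
SNHG16-201, bases 253 to 282: ttactatgtGAAGGGAGAGAGctcaagccc

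The smallest of the 9 anti-FLAG libraries had 858733 counts and the largest 1804732, and the input had 2193699. The ncRNA class took 12.0 to 20.8% of the anti-FLAG counts and 39.5% of the input's. Of 7 markers of the line, 6 had more than 3 counts in the input, with VIM at 326 and PAX8 at 2, while 7 of 9 markers of other cell types had 3 or fewer, the exceptions being CDX2 (84) and ACTA1 (13). Libraries of a group differed from each other by more than counting error (chi-square over degrees of freedom between 3.97 and 9.07). CR-1-31-B library 3 stood apart from the other rocaglate libraries in its share of counts on 5' leaders, and several values that it moved are given below with and without it.

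The first question was how much host RNA was recovered with eIF4A under vehicle. Together the 10 hosts made up 578 ± 112 CPM (counts scaled to 1000000 counts a library; mean ± SD, n = 3) in DMSO, with 705, 492 and 537 CPM in libraries 1 to 3. The input held 518 CPM, inside the range of the DMSO libraries. SNHG16 and SNHG3 were the main sources, with 30.9% and 19.7% of all host counts in the 9 anti-FLAG libraries, and SNHG8 the smallest with 2.17%. A summed level cannot tell fewer molecules bound from fewer molecules present.

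Per kilobase of median transcript length, SNHG16 led in DMSO at 224 ± 74.6 CPM per kb (SD, n = 3), and all 3 of its values were above those of GAS5, next at 98.1 ± 29.2. The descending order then ran through SNHG1 (69.0), SNHG3 (58.3), SNHG5 (57.5), SNHG12 (42.4), SNHG6 (39.8), SNHG15 (28.6), ZFAS1 (27.0) and SNHG8 (14.3). Each of these overlapped its neighbour in the order. SNHG16 and GAS5 were ranked 1 and 2 in the input and in all 3 anti-FLAG groups. SNHG6 had rank 9 in the input, 7 in DMSO and 3 with either rocaglate, and ZFAS1 had rank 9 in DMSO, 10 after silvestrol and 5 after CR-1-31-B.

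**Figure D1:**
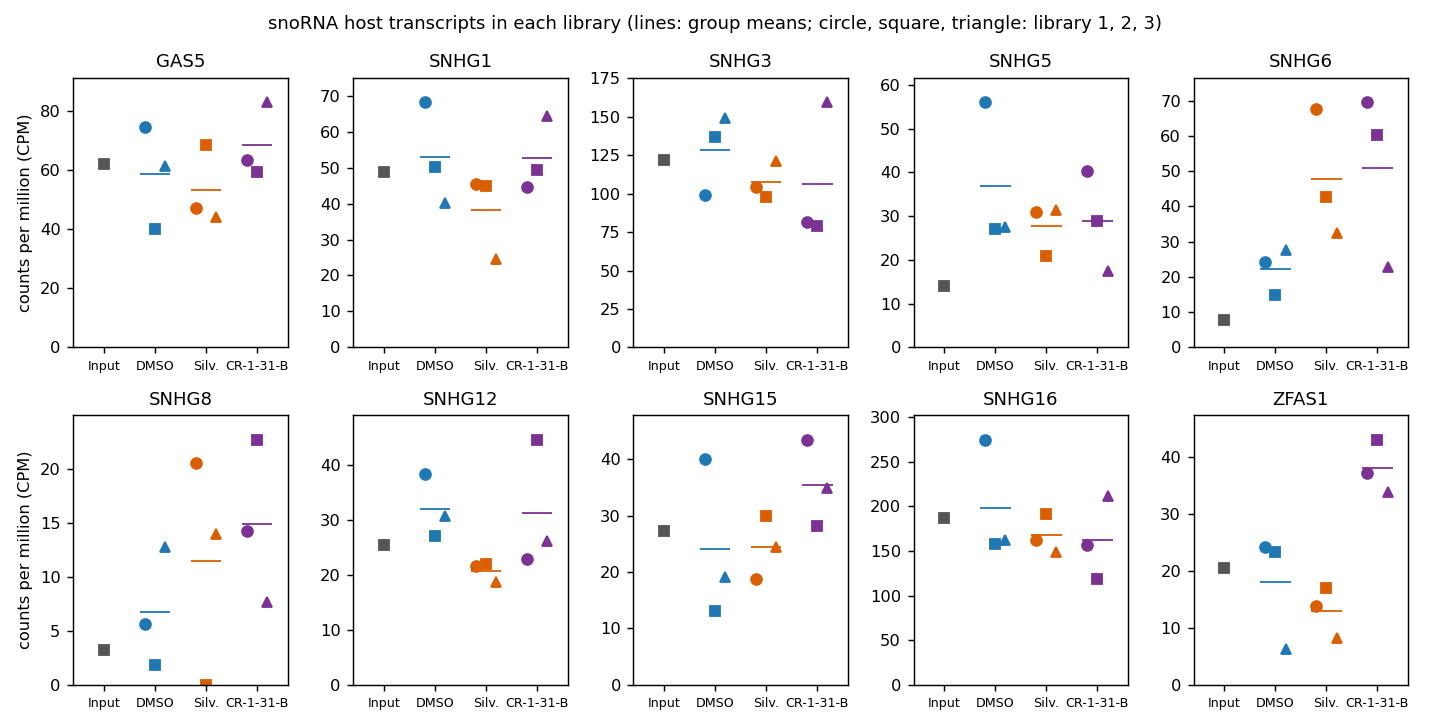
CPM (linear axes, from 0) of each host in each library; every point is 1 library, shaped by its number, and lines are means of 3 libraries, with a single input library. SNHG6 lies between 32.6 and 67.6 CPM in the silvestrol libraries and between 14.9 and 27.6 in DMSO, and ZFAS1 is above 33 CPM only in the CR-1-31-B libraries.

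Relative to input, none of the 10 hosts was at least 2-fold higher, or 2-fold lower, in all 3 DMSO libraries. Among 2732 ncRNA rows with at least 20 counts in the 4 libraries and more than 3 in the input, 5.42% were that much higher and 5.53% that much lower. The mean DMSO-to-input ratio of CPM had a median of 1.07 over the hosts and 1.12 over the ncRNA rows. With 1 input library these ratios have no replicate check on the input side.

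SNHG5, SNHG6 and SNHG12 had ratios above 1 in all 3 DMSO libraries, and no host was below 1 in all 3. Of 12 other noncoding snoRNA hosts compared, 6 were above 1 in all 3 and 1 below. Of the 35 intronic snoRNAs of the hosts, 9 were above and 19 below. The share of all ncRNA rows above 1 in all 3 was not counted, but 43.1% of them had a mean ratio below 1. SNHG6, the host of SNORD87, stood highest with ratios of 3.13, 1.92 and 3.56, a mean of 2.87 ± 0.849 (SD, n = 3). Its input level was 7.75 CPM from 17 counts (95% exact Clopper-Pearson interval 4.51 to 12.4 CPM, counting error only). SNHG5, the host of SNORD50A and SNORD50B, followed with 3.96, 1.91 and 1.95, and its 14.1 CPM in the input were below all 9 anti-FLAG values, which ran from 17.5 to 56.0. For SNHG12 the ratios were 1.50, 1.06 and 1.20.

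The other hosts straddled 1. The ratios of SNHG3, which carries SNORA73A and SNORA73B, were 0.81, 1.12 and 1.22, and those of SNHG16 were 1.47, 0.846 and 0.868. GAS5, named for its accumulation in growth-arrested cells, had a mean ratio of 0.947, SNHG1 1.08, SNHG15 0.881 and ZFAS1 0.876. SNHG8 averaged 2.11 but rested on 7 input counts and on 2 to 12 counts in the DMSO libraries.

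The class total matters to this comparison. Set against ncRNA counts alone, the 10 mean ratios ran from 2.28 (ZFAS1) to 7.33 (SNHG6), and the hosts' joint share of ncRNA counts was 0.131% in the input and 0.377 ± 0.135% in DMSO (SD, n = 3). On that scale SNHG3, SNHG5, SNHG6 and SNHG12 were at least 2-fold higher in all 3 DMSO libraries, as were 34.2% of the ncRNA rows. A spliceosomal RNA, RNU2-1, took 34.0% of the ncRNA counts of the input and 0.864 to 1.54% in the DMSO libraries. RMRP, an RNA of the RNase MRP enzyme, took 5.77% in the input and 16.8 to 33.8% in DMSO.

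The intronic snoRNAs of the same genes formed a second readout. Rows were found for 35 of them, of which 28 were box C/D and 7 box H/ACA by symbol. Together they held 32474 CPM in the input and 4394, 7318 and 4721 CPM in the DMSO libraries, while the sums of their hosts overlapped the input. Most of the input sum came from SNORA73A and SNORA73B of SNHG3. These 2 held 23894 CPM in the input and 958, 1272 and 1126 CPM in the DMSO libraries. Of the 35, 7 were at least 2-fold lower in all 3 DMSO libraries and 3 at least 2-fold higher. Scaled to ncRNA counts the tally turned to 5 lower and 10 higher, where 2.01% and 34.2% of the ncRNA rows were.

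The box type divided them. Of the 7 box H/ACA snoRNAs, 6 were at least 2-fold lower in every DMSO library: SNORA73A and SNORA73B of SNHG3, SNORA16A, SNORA44 and SNORA61 of SNHG12, and SNORA9 of SNHG15. The same held for 66.3% of the 95 box H/ACA snoRNAs of other genes. SNORA24 of SNHG8 was the exception at a mean ratio of 0.911. Of the 28 box C/D snoRNAs only SNORD27 of SNHG1 was that much lower, and their median ratio was 0.86 against 0.12 for box H/ACA. The box H/ACA and the 112 box C/D snoRNAs of other genes had medians of 0.185 and 1.33, so the difference between box types was not confined to these hosts. Scaled to ncRNA counts, 5 of the 7 box H/ACA snoRNAs and none of the 28 box C/D were that much lower, SNORA44 and SNORD27 dropping out. On that scale 33.7% of the box H/ACA and 0.893% of the box C/D snoRNAs of other genes were that much lower.

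SNHG3 stood well apart from its snoRNAs. Its own mean ratio was 1.05, and those of SNORA73A and SNORA73B were 0.0653 and 0.0341. For every SNHG3 count there were 196 counts of its snoRNAs in the input and 8.84 ± 1.15 in DMSO (SD, n = 3). SNORA73A and SNORA73B are near-identical copies, so the split of reads between them is uncertain.

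GAS5 carried all 3 snoRNAs that were at least 2-fold higher in CPM, which makes 10.7% of the 28 box C/D snoRNAs of these hosts, against 14.3% of those of other genes. Scaled to ncRNA counts there were 10, of which SNORD28 (SNHG1), SNORD50A (SNHG5), SNORD99 (SNHG12) and SNORD1A (SNHG16) lie in other hosts. These 10 were 35.7% of the 28, against 56.25% of the box C/D snoRNAs of other genes. SNORD75 had 15 counts in the input and 250, 470 and 232 in DMSO, a mean ratio of 44.7 ± 16.7. SNORD77 had a mean ratio of 6.96 and SNORD47 of 2.60, and the other 7 box C/D snoRNAs of GAS5 ranged from 0.418 (SNORD81) to 1.73 (SNORD44). GAS5 itself thus stood near 1 with snoRNAs on both sides of it.

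**Figure D2:**
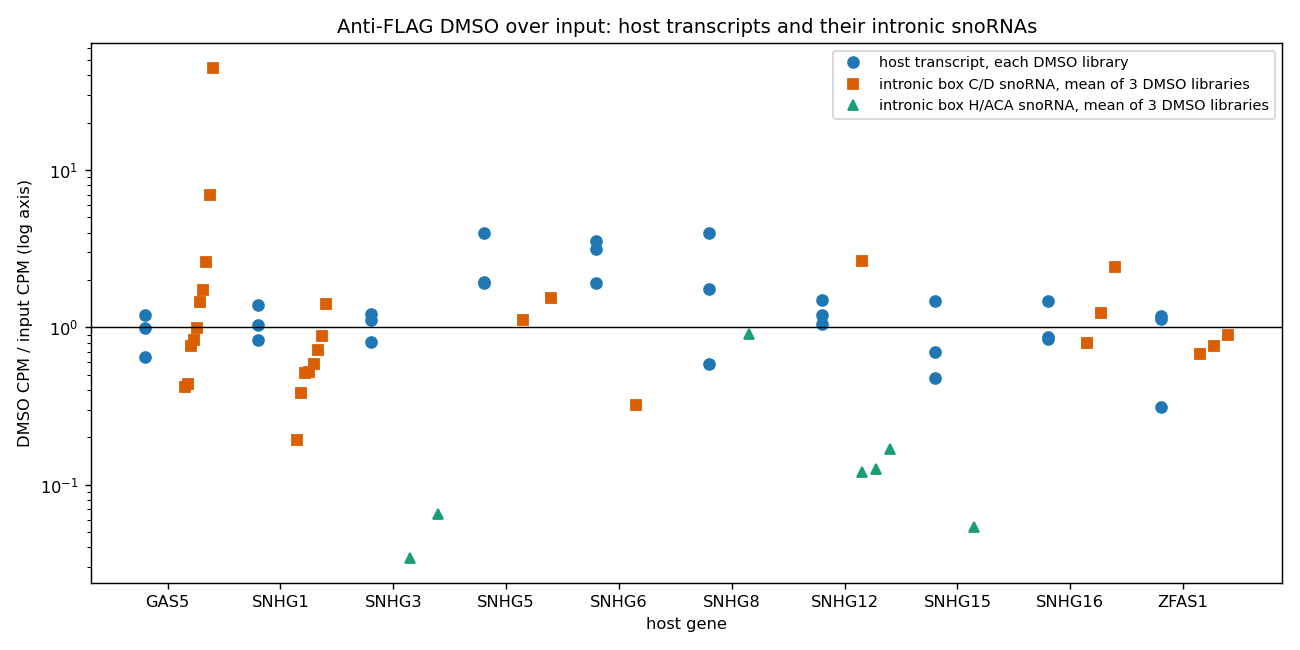
DMSO CPM over input CPM on a log axis, by host gene. Circles are the host transcript in each of 3 DMSO libraries, squares and triangles its box C/D and box H/ACA snoRNAs as means of the 3; hosts scatter around 1, 6 of 7 box H/ACA snoRNAs lie below 0.2, and SNORD75 of GAS5 lies at 44.7.

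The number of snoRNA counts for each host count differed between genes. In DMSO there were 27.1 ± 13.9 snoRNA counts for each GAS5 count and 0.96 ± 0.479 for each SNHG16 count (SD, n = 3). How reads inside both a host and its snoRNA were counted is not given, so these ratios cannot show whether host rows hold snoRNA reads. In GENCODE, 22 of the 35 snoRNAs had an entry, all 22 inside their host gene on its strand, and 7 overlapped an exon of a host transcript other than a retained intron. SNORD1A and SNORD1C of SNHG16 were among these 7, and the snoRNAs of GAS5 had no entry. Several hosts also overlap other genes. ZFAS1 overlaps ZNFX1, SNHG6 overlaps MCMDC2, SNHG12 overlaps TRNAU1AP and GAS5 overlaps GAS5-AS1, each on the opposite strand, and SNHG3 overlaps RCC1 on the same strand. Whether counting used strand is not given in the sources used here, so reads of such pairs cannot be told apart with certainty. MCMDC2 had 4 to 17 counts in its 3'UTR row in the anti-FLAG libraries, where SNHG6 had 16 to 122. In the same libraries the coding sequence row of ZNFX1 had 5 to 47 counts, where ZFAS1 had 6 to 60. The coding sequence row of RCC1 had 44 to 144 counts, where SNHG3 had 98 to 188. In the input the same rows had 17 counts for MCMDC2 and 17 for SNHG6, 89 for ZNFX1 and 45 for ZFAS1, and 140 for RCC1 and 268 for SNHG3. The input counts behind the ratios of SNHG6 and ZFAS1 were thus no larger than those of an overlapping gene. TRNAU1AP and GAS5-AS1 had at most 19 counts in any row.

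The second question was whether silvestrol changed the host RNA recovered with eIF4A. No host passed the test (edgeR quasi-likelihood with Benjamini-Hochberg adjustment over 24713 features, threshold 0.05), against 0.255% of all features and 0 of 1733 ncRNA rows. At an unadjusted p under 0.05 there were 1 host and 50 ncRNA rows. The median log2 fold change was -0.22 over the hosts, with 3 above 0 and 7 below, and 0.01 over the ncRNA rows. The summed host level was 512 ± 37.7 CPM (SD, n = 3) with silvestrol, at 532, 535 and 468 CPM, and 2 of these 3 libraries lay inside the DMSO range.

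SNHG6 was the host at an unadjusted p under 0.05. It had 24.3, 14.9 and 27.6 CPM in DMSO and 67.6, 42.8 and 32.6 CPM with silvestrol. All silvestrol libraries were above all DMSO libraries, as in 2.89% of the ncRNA rows. The log2 fold change was 1.14 (SE 0.47), with an edgeR adjusted p of 0.479.

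SNHG12 stood on the other side. It had 38.3, 27.0 and 30.7 CPM in DMSO and 21.6, 21.9 and 18.6 CPM with silvestrol, all below DMSO, as in 5.37% of the ncRNA rows. Its log2 fold change was -0.59 (SE 0.45), with an edgeR adjusted p of 0.817. The remaining 8 hosts overlapped between groups, from -0.44 for ZFAS1 to 0.83 for SNHG8, whose counts were 37, 0 and 12 with silvestrol. The 0 allows a level of up to 2.99 CPM in that library (3 counts of the total).

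The third question was the same for CR-1-31-B. Again no host passed the edgeR test, against 0.291% of all features and 0 of 1733 ncRNA rows. At an unadjusted p under 0.05 there were 1 host, SNHG6, and 56 ncRNA rows. The median log2 fold change was 0.09 over the hosts, 5 on each side of 0, and -0.10 over the ncRNA rows. The summed level was 590 ± 65.7 CPM (SD, n = 3), at 574, 533 and 662 CPM, all inside the DMSO range.

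For SNHG6 the CR-1-31-B libraries held 69.5, 60.2 and 22.9 CPM. Libraries 1 and 2 were above every DMSO value and library 3 was among them. The log2 fold change was 1.20 (SE 0.46), with an edgeR adjusted p of 0.386. For both rocaglates together it was 1.17 (SE 0.42, adjusted p = 0.282), and no host passed the edgeR test in that contrast, where 0.49% of all features did.

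Library 3 of CR-1-31-B also stood apart in the share of counts on mRNA 5' leaders. That share was 20.7 to 24.1% in DMSO, 28.5 to 34.4% after silvestrol, and 32.7, 35.0 and 22.8% in CR-1-31-B libraries 1 to 3. The 3 libraries with the most SNHG6 were those with the 3 highest leader shares, and the input was lowest in both, at 7.57% of counts on leaders. Without CR-1-31-B library 3, the SNHG6 log2 fold change for CR-1-31-B was 1.55 (edgeR adjusted p = 0.115). The part of the leader share in the SNHG6 values was not tested.

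**Figure D3:**
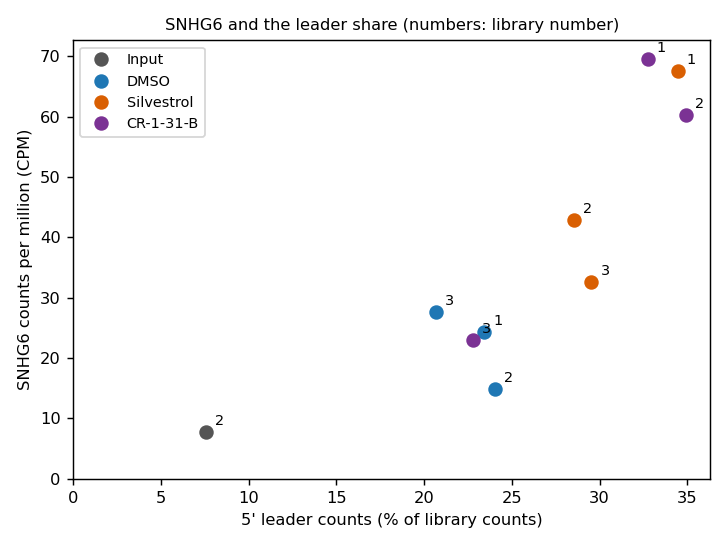
SNHG6 CPM against the percent of library counts on 5' leaders, 1 point per library, numbered by library. CR-1-31-B library 3, at 22.8% and 22.9 CPM, lies among the DMSO libraries, while the other rocaglate libraries lie above 28% and 32 CPM.

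ZFAS1, whose spliced RNA is known to associate with ribosomes, was the only host whose CR-1-31-B and DMSO libraries did not overlap. It had 24.3, 23.3 and 6.36 CPM in DMSO and 37.3, 43.0 and 33.8 CPM with CR-1-31-B. All CR-1-31-B libraries were above all DMSO libraries, as in 2.6% of the ncRNA rows. The log2 fold change was 1.05 (SE 0.52), with an edgeR adjusted p of 0.583. DMSO library 3 held 6 counts of ZFAS1, and without it the log2 fold change was 0.67 (adjusted p = 0.927).

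The other 9 hosts overlapped between CR-1-31-B and DMSO, SNHG6 through library 3. SNHG15, a host with a short-lived RNA, had 40.1, 13.0 and 19.1 CPM in DMSO and 43.5, 28.1 and 34.9 CPM with CR-1-31-B, a log2 fold change of 0.56 (SE 0.48). SNHG16 had 274, 158 and 162 CPM in DMSO, 162, 191 and 149 after silvestrol, and 156, 118 and 212 after CR-1-31-B. GAS5, SNHG1 and SNHG12 had log2 fold changes for CR-1-31-B of 0.21, -0.02 and -0.04, and SNHG3 and SNHG5 of -0.30 and -0.34. Without CR-1-31-B library 3 the values of SNHG3 and SNHG5 were -0.68 and -0.075, that of SNHG16 was -0.52 and that of GAS5 was 0.077, none of them called. The comparisons of each rocaglate with DMSO share the DMSO libraries.

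**Figure D4:**
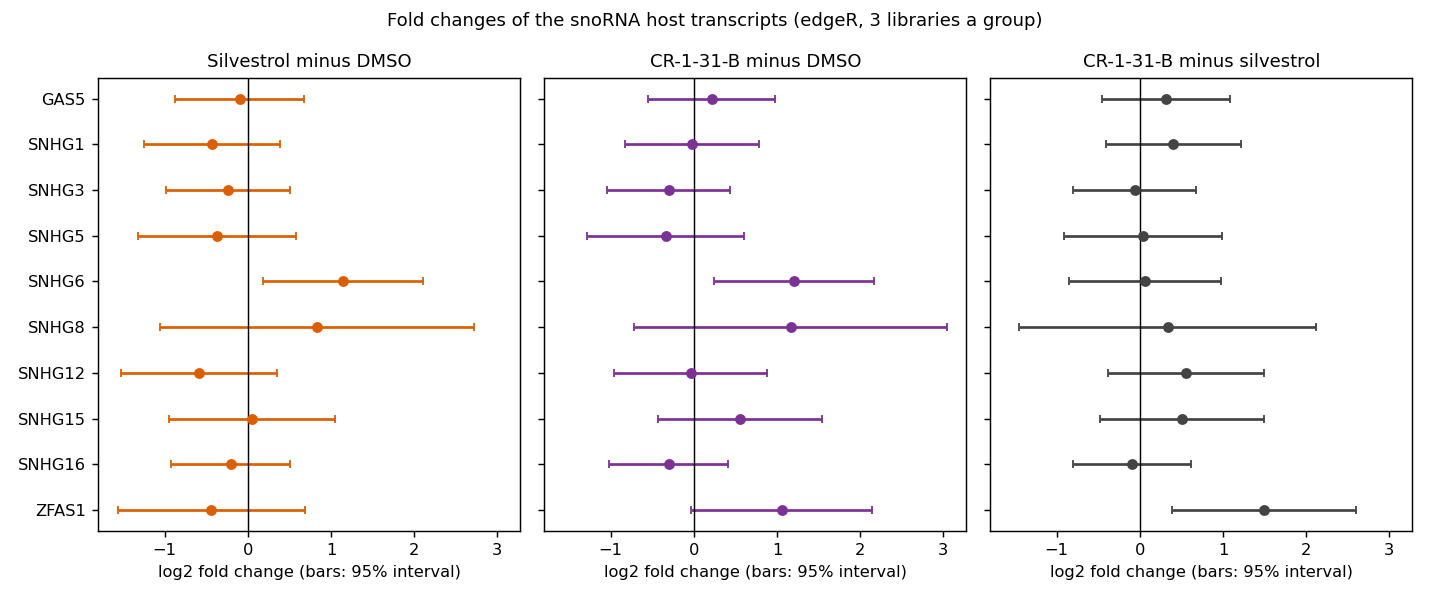
edgeR log2 fold changes of the 10 hosts with 95% intervals, 3 libraries a group, for silvestrol minus DMSO, CR-1-31-B minus DMSO and CR-1-31-B minus silvestrol. Intervals leave out 0 for SNHG6 in the first 2 panels and for ZFAS1 in the third, and no host has an adjusted p under 0.05.

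The 2 rocaglates were then compared with each other at the same dose and time. No feature passed the edgeR test (0% of 24713, with 609 at an unadjusted p under 0.05, and none by DESeq2), and so no host did. ZFAS1 differed most, with 13.9, 16.9 and 8.15 CPM under silvestrol against 37.3, 43.0 and 33.8 under CR-1-31-B. Its log2 fold change was 1.49 (SE 0.53, 95% interval 0.39 to 2.60), with an edgeR adjusted p of 0.9998. Every CR-1-31-B library was above every silvestrol library for ZFAS1 and for SNHG12 (log2 fold change 0.55, SE 0.45), as in 2.25% of the ncRNA rows.

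For SNHG6 the rocaglates differed by a log2 fold change of 0.06, with an interval from -0.86 to 0.98 that leaves room for nearly a doubling either way. Among the other hosts the narrowest interval was that of SNHG16, from -0.81 to 0.61, and the widest that of SNHG8, from -1.45 to 2.12. Over the 10 hosts the median was 0.32 and 8 were above 0, whereas the median of the ncRNA rows was -0.11 and 41.0% were above 0.

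The precision sets the limit of these comparisons. Standard errors of the host log2 fold changes against DMSO ran from 0.34 to 0.91 for silvestrol. They were smallest for SNHG16 and largest for SNHG8, the hosts with the most and the fewest counts. The SNHG6 values were 2 to 3 standard errors from 0, and adjustment over 24713 features left them short of the threshold.

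The intronic snoRNAs were tested in the same fits. None of 35 passed the edgeR test with either rocaglate, and 1 had an unadjusted p under 0.05 in each comparison. Their median log2 fold change was 0.35 with silvestrol (30 of 35 above 0) and 0.33 with CR-1-31-B (27 of 35), beside -0.22 and 0.09 for their hosts. Over all ncRNA rows the medians were 0.01 and -0.10, with 50.5% and 43.2% above 0. In CPM they summed to 5194, 10761 and 4036 after silvestrol and to 4302, 6165 and 8759 after CR-1-31-B. The highest libraries, silvestrol 2 and CR-1-31-B 3, also had the highest ncRNA shares of their groups (20.8% and 18.8%), and the part of that share in the snoRNA values was not tested.

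SNORD77 of GAS5 had the lowest adjusted p among them. It had 38, 55 and 44 counts in DMSO, 103, 84 and 55 after silvestrol and 90, 117 and 196 after CR-1-31-B. In CPM this was 44.4 ± 8.09 in DMSO and 68.3 ± 13.8 after silvestrol (SD, n = 3), and 55.9, 91.5 and 214 in CR-1-31-B libraries 1 to 3. All rocaglate libraries were above all DMSO libraries, as in 0.635% of the ncRNA rows. The CR-1-31-B mean was 120 CPM, and 73.7 without library 3. The CR-1-31-B log2 fold change was 1.40 (SE 0.43, edgeR adjusted p = 0.207), and 0.73 (adjusted p = 0.523) without that library. SNORA61 of SNHG12 had log2 fold changes of 0.95 after silvestrol and 0.42 with CR-1-31-B, and SNORA24 of SNHG8 of 0.60 and 0.50, with overlapping groups. Without CR-1-31-B library 3 their CR-1-31-B values were 0.067 and 0.23.

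Among other noncoding snoRNA hosts there was likewise no call. Of 15 in the files 11 were tested and none passed, with median log2 fold changes of 0.03 for each rocaglate. SNHG21 had the largest difference, from 5.27 ± 1.92 CPM in DMSO to 19.4 ± 8.97 with CR-1-31-B (SD, n = 3), a log2 fold change of 1.87 (SE 0.81) with an edgeR adjusted p of 0.475. SNHG19 had 22.0 ± 7.66 and 9.20 ± 3.39 CPM in the same groups, a log2 fold change of -1.29 (SE 0.60) with an edgeR adjusted p of 0.539. EPB41L4A-AS1 had 41.6 ± 9.49 CPM in DMSO, 26.0 ± 8.82 after silvestrol and 25.9 ± 12.1 with CR-1-31-B, and its groups overlapped.

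Protein-coding snoRNA hosts are mostly genes of the translation machinery, and their rows divide by mRNA region. Of 32 genes with 76 tested rows none passed the edgeR test for silvestrol or CR-1-31-B. The median log2 fold change of their 30 leader rows was 0.18 after silvestrol and -0.18 with CR-1-31-B, where all leader rows had medians of 0.40 and 0.35. Their 30 coding sequence rows had medians of -0.38 and -0.29, where all such rows had -0.12 and -0.03. Their 15 3'UTR rows had medians of -0.60 and -0.57, where all 3'UTR rows had -0.26 and -0.27. The lower medians were thus not confined to leaders. The RPL5 leader, of a large-subunit ribosomal protein gene, had 383 ± 57.6 CPM in DMSO and 141 ± 60.9 with CR-1-31-B (SD, n = 3), a log2 fold change of -1.45 (SE 0.35) with an edgeR adjusted p of 0.0743. With the library number as a block the RPL5 value was -1.51 (adjusted p = 0.00291), which passed. The coding sequence of HSPA8, a constitutive chaperone gene, had a log2 fold change of -1.15 for both rocaglates together (adjusted p = 0.0991), and -1.09 (adjusted p = 0.00747) with the block. The 3'UTR of EEF2, the ribosomal translocation factor gene, had 342 ± 32.9 CPM in DMSO, 190 ± 73.6 after silvestrol and 163 ± 52.4 with CR-1-31-B (SD, n = 3). With the block its log2 fold change was -1.13 for CR-1-31-B (adjusted p = 0.0287) and -1.01 for both rocaglates (adjusted p = 0.0143). The RPS3 leader, of a small-subunit protein gene, passed in the other direction with the block, at 1.17 for silvestrol (adjusted p = 0.0468) and 1.13 for both rocaglates (adjusted p = 0.0224). In all, 2, 3 and 6 of the 76 rows of this list passed with the block for silvestrol, CR-1-31-B and both rocaglates. Over all 24713 features 316, 365 and 505 passed with the block. DESeq2 called the RPL5 leader for CR-1-31-B (adjusted p = 0.00156), and RPL5, HSPA8 and EEF2 for both rocaglates (adjusted p = 0.0086, 0.015 and 0.0344). It called 335 and 531 of all 24713 features in these 2 comparisons.

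The factors of nonsense-mediated decay and the exon junction complex, which act on many host RNAs, and the core proteins of snoRNA particles had no called row either. They comprised 14 genes with 35 rows and 8 genes with 21 rows. Their median log2 fold changes with silvestrol were -0.10 and 0.07, and with CR-1-31-B -0.16 and 0.04. UPF3B, which links the junction complex to decay, had coding sequence levels of 14.6 ± 6.64 CPM in DMSO, 42.3 ± 20.4 after silvestrol and 35.3 ± 22.8 after CR-1-31-B (SD, n = 3), the last being 22.3 without library 3. For both rocaglates together the log2 fold change was 1.41 (SE 0.48, edgeR adjusted p = 0.253), or 1.11 (adjusted p = 0.355) without that library, and the leader of UPF3A, its paralog, had -1.48. Among the snoRNA particle proteins, the DKC1 leader, of the pseudouridine synthase, had 0.79, the NHP2 leader -0.76 and the DKC1 3'UTR -0.97.

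The rows whose log2 CPM over the 10 libraries was most like the mean log2 CPM of the 10 hosts were coding sequences. Among 11354 rows they were PSMA5 (Pearson r = 0.942), ATP5G3 (0.934), ELP5 (0.926), MRPL17 (0.921) and MRPS22 (0.919). These are descriptions over 10 libraries that share the depth and composition of each library.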

How the data were processed

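The deposited values are read counts per gene symbol in 7 classes, 1 file per library (9 anti-FLAG, 1 input). Per the submitters' processing notes the authors used cutadapt and Bowtie 1.1. Build, annotation, use of strand, treatment of PCR duplicates and rule for counting a read are not given in the sources used here. Each file held 1 blank line, which was left out.

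Levels (CPM) are counts divided by the library total and multiplied by 1000000. The 9 anti-FLAG libraries, 858733 to 1804732 counts each, were fitted together with edgeR 4.0.16 in R 4.3.3: filterByExpr by group, TMM factors, quasi-likelihood tests, and adjustment over the 24713 features left. A feature is a symbol and class. Ratios to the input were taken from CPM. Alternatives included other scalings, no low-count filter, DESeq2 1.42.0, a replicate block and leaving out each library. The edgeR step was tested on simulated data. Of 100 simulated 2-fold changes it recovered 0 for silvestrol, 1 for CR-1-31-B and 2 for both rocaglates together. Of 100 simulated 4-fold changes it recovered 26, 27 and 36. Most changes of these sizes were thus missed, so a host that did not pass may still have changed. The changed features were drawn at random above a low CPM limit and not matched to the hosts. The recovery at the levels of the hosts was therefore not measured. Intervals of single libraries cover counting error only.

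The libraries are numbered 1 to 3 in each group. Deviations from the group means of log2 CPM correlated at 0.102 to 0.263 for the 9 same-number pairs. For the other 18 pairs the correlations were -0.203 to 0.0163. Libraries of the same number were therefore more alike, which comes from the data, not the labels. The main tests did not use this pairing and compared group means only. The replicate block, run as an alternative, did use it. The hosts and gene lists were chosen with earlier results of these data known. Named rows of the other lists are the 3 with the smallest p for both rocaglates together. A row that this rule names is not reported here. The box types, RNU2-1, RMRP, the snoRNAs named for their input ratio and the leader share beside SNHG6 were chosen after their values were seen. Calls against the input scaled to ncRNA counts were added after seeing the data. The 5 rows most like the hosts were ranked by Pearson's r of log2 CPM (prior count 2) with the mean log2 CPM of the 10 hosts, among rows of at least 20 CPM on average.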

Additional observations from a re-analysis of the deposited data

How the results depend on the processing

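No host passed the threshold under any of the alternatives run, and of 630 alternative log2 fold changes of hosts 588 kept their sign and 42, in 18 of 40 host comparisons, did not. The sign of SNHG6 against DMSO held throughout (0.80 to 1.37 for silvestrol, 0.92 to 1.55 for CR-1-31-B, lowest adjusted p 0.271 and 0.115), as did that of ZFAS1 between the rocaglates (1.24 to 1.72). The number of features called in silvestrol, CR-1-31-B and both rocaglates against DMSO was 63, 72 and 121 in the main analysis, 308, 335 and 531 with DESeq2, 215, 225 and 320 without the low-count filter, and 0 in each within the ncRNA class alone. With the replicate block it was 316, 365 and 505, and between the rocaglates 1 feature was called with the block and 7 without the filter, against 0 in the main analysis. The block called no host and changed the sign only of SNHG1 for CR-1-31-B (0.0084) and SNHG5 between the rocaglates (-0.0047). In the other lists the block and DESeq2 added only calls of protein-coding hosts.

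Within the ncRNA class alone the signs of SNHG15 for silvestrol (-0.021), SNHG1 (0.051) and SNHG12 (0.075) for CR-1-31-B changed, and without the filter those of SNHG1 (0.015) and SNHG12 (0.0076). Leaving out 1 library at a time gave 4 to 100 calls for silvestrol, 0 to 226 for CR-1-31-B and 7 to 287 for both; the lowest were without DMSO library 3 and the highest without silvestrol library 2 (100) or CR-1-31-B library 3 (226 and 287). It spanned 0 for silvestrol in GAS5 (-0.34 to 0.14), SNHG5 (-0.53 to 0.082), SNHG15 (-0.19 to 0.66) and SNHG16 (-0.33 to 0.12). For CR-1-31-B it did so in SNHG1 (-0.18 to 0.21), SNHG5 (-0.65 to 0.11), SNHG12 (-0.37 to 0.15) and SNHG16 (-0.52 to 0.0097). For both rocaglates it did so in GAS5 (-0.10 to 0.29), SNHG1 (-0.38 to 0.015), SNHG5 (-0.51 to 0.10), SNHG16 (-0.37 to 0.065) and ZFAS1 (-0.076 to 0.62). Between the rocaglates it did so in SNHG3 (-0.45 to 0.095), SNHG5 (-0.28 to 0.29), SNHG6 (-0.22 to 0.40), SNHG8 (-0.23 to 1.11) and SNHG16 (-0.31 to 0.049). The cause of these changes was not tested.

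Scaled to ncRNA counts, the mean DMSO-to-input ratios were 2.46 for GAS5, 2.81 for SNHG1, 2.60 for SNHG3, 6.90 for SNHG5, 7.33 for SNHG6, 5.27 for SNHG8, 3.23 for SNHG12, 2.36 for SNHG15, 2.78 for SNHG16 and 2.28 for ZFAS1, all moved by more than 1 SD. The hosts' share of ncRNA counts, in another unit than the summed CPM, was 0.327 ± 0.0874% for silvestrol and 0.408 ± 0.0634% for CR-1-31-B (SD, n = 3). Summing every class left the host values as they were, since the other classes held no host counts. Depth limits SNHG8 most, at 0 to 37 counts a library, and a single input library limits every ratio to input.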
